A study of Saccharomyces cerevisiae with 24 samples.

Results

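The genes described here encode the proteins of the large subunit of the cytosolic ribosome of budding yeast. A probe set, the unit of measurement on the array, was taken when every gene it names is an RPL gene (RPL, a number and an optional A or B) or a gene of the acidic stalk (RPP0, RPP1A, RPP1B, RPP2A or RPP2B). RPL7, RPL9 and RPL22 genes were left aside, with 11 probe sets. This left 85 of 9275 probe sets, which name 73 genes, RPL18 not among them. Of these, 49 name 1 gene and cover 41 genes, and 36 name both copies of a pair.

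The large subunit joins amino acids at the peptidyl transferase centre, which is made of RNA, and its proteins shape the exit tunnel, hold 5S rRNA and form the stalk that receives translation factors. Most of these proteins in budding yeast are encoded by a pair of near-identical genes whose products can often replace each other. Their genes are transcribed together at a very high rate, mostly through Rap1, Fhl1 and Ifh1 at their promoters, and shut down together when nutrients or the TOR kinase fail.

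RNA was compared between wild-type BY4741, a laboratory haploid of mating type a, and 11 strains of the same background that each lacked 1 ribosomal protein gene. A large subunit gene was missing in rpl12a, rpl12b, rpl14a and the 4 strains rpl7a, rpl7b, rpl22a and rpl22b, and a small subunit gene in rps0a, rps0b, rps18a and rps18b. All cultures grew in YPD, a rich glucose medium, at 30 °C to early log phase, and 2 biological replicates of each of the 12 strains gave 24 Affymetrix arrays. The design asks if a gene and its near-identical copy play different parts, and every deletion strain kept the other copy. The copies missing in 8 of the deletions are small subunit genes, RPL7 or RPL22, so only rpl12a, rpl12b and rpl14a lacked a gene of the set.

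Large subunit genes were among the brightest features of every array. Their median signal lay between the 98.3 and 98.8 percentile of all probe sets, and outside the strains lacking the gene all 85 stood above the background of 5.55 to 30.8 on each array. Of marker transcripts, MFA1, MFA2, STE2 and BAR1 of a cells were above background on 24 of 24 arrays. Of alpha cell markers, MF(ALPHA)1 was above background on 23, at 14 to 44, and STE3 on 17, at 6.9 to 19.2. Of the genes BY4741 lacks in whole or part, URA3 was above background on 0 of 24 arrays and MET17 on 6, but the 3 LEU2 sets on 0, 19 and 22 and both HIS3 sets on 24. In rpl7a, rpl12b and rpl14a most genes of chromosomes XVI, V and VIII read higher than in wild type, so values from these strains carry that shift. A signal is relative to the other RNA on its array, and fewer cells with a transcript cannot be told apart from less transcript per cell.

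RPL12, at the base of the stalk, and RPL14, a protein of the subunit's surface, check the labels of their strains. Signals below are normalised intensities, given for replicate 1 and then replicate 2. One RPL12 probe set read 7598 and 7979 in wild type, 3.6 and 3.7 in rpl12a, and 8936 and 9158 in rpl12b. It was above background in 0 of 2 rpl12a arrays and at least 595-fold lower there (limma, adjusted p = 9.30e-17). It is annotated with both copies, yet it followed the A copy. Another read 6070.4 and 6690 in wild type, 5922 and 5899 in rpl12a, and 3.6 and 5.4 in rpl12b. It was at least 654-fold lower in rpl12b (limma, adjusted p = 2.20e-15) and so followed the B copy.

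**Figure D1:**
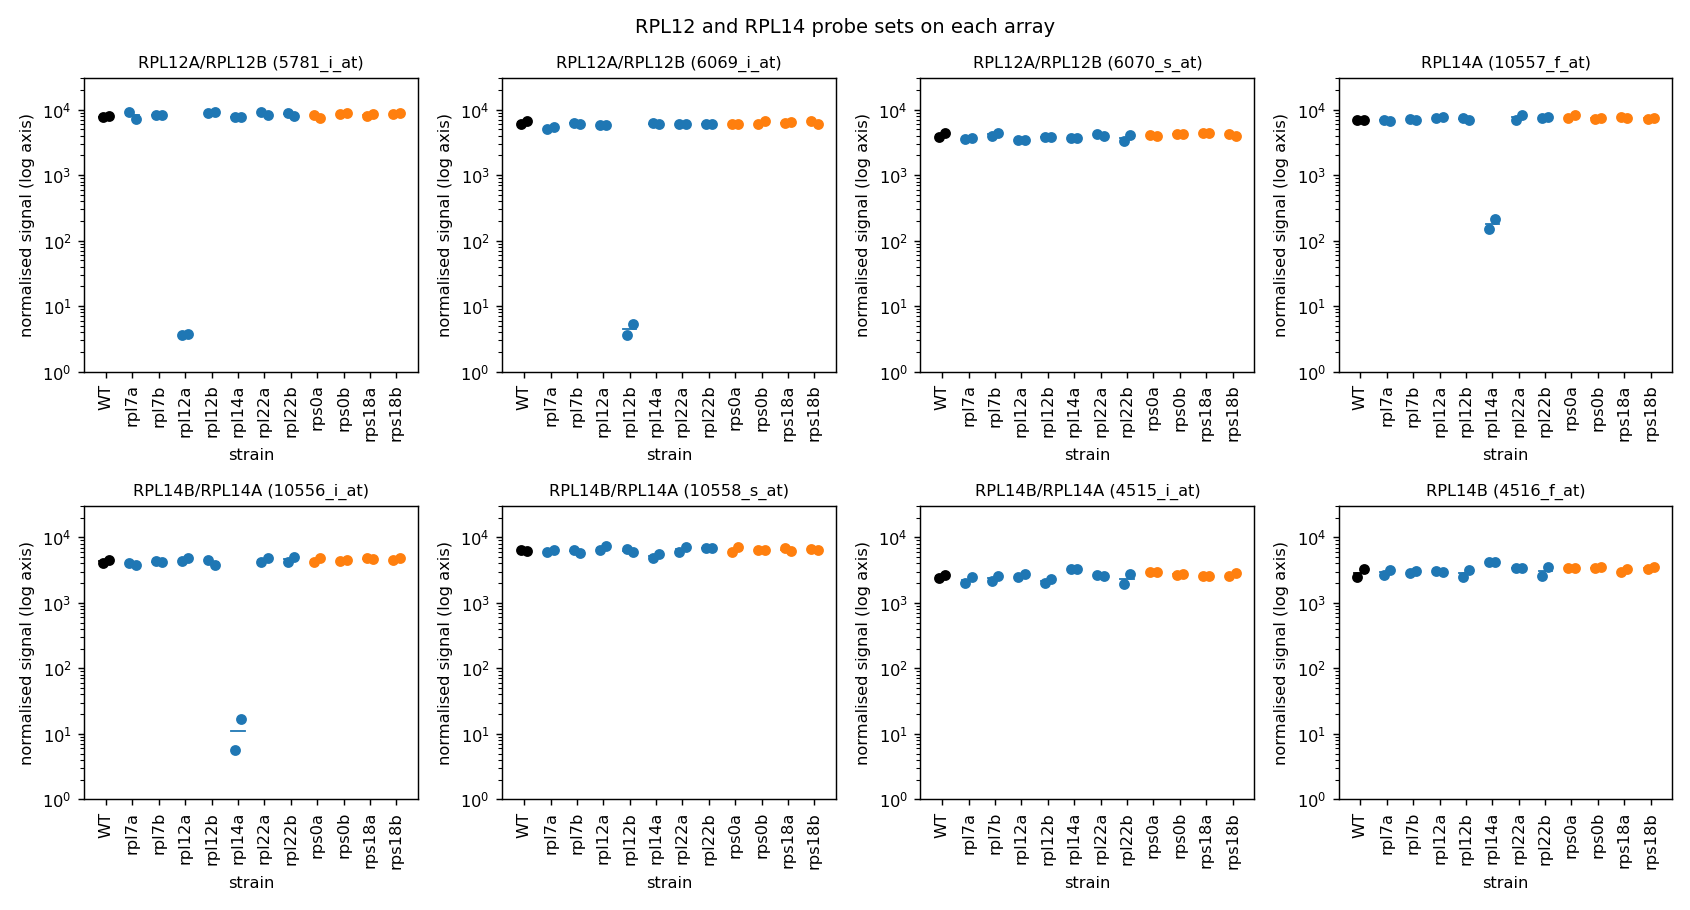
Normalised signal (log axis) of 3 RPL12 and 5 RPL14 probe sets on each of the 24 arrays, with points for replicates and a line for their mean (black wild type, blue large and orange small subunit deletions). One RPL12 set is lost in rpl12a, another in rpl12b, and 2 RPL14 sets fall in rpl14a, while the other sets stay bright.

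The remaining RPL12 copy was not called in either strain. With RPL12A missing, the B-type probe set differed from wild type by -0.11 ± 0.15 on the log2 scale (SE, n = 2 and 2, limma, adjusted p = 0.962). With RPL12B missing, the A-type set differed by 0.22 ± 0.12 (limma, adjusted p = 0.554). RPL12A lies on chromosome V, which reads higher in rpl12b. The third set stayed bright in both strains and read 3782 and 4418 in wild type, 3445 and 3401 in rpl12a and 3830 and 3782 in rpl12b. Its rpl12a arrays lay below both wild-type arrays, but the differences of -0.26 ± 0.12 and -0.10 ± 0.12 missed the threshold (limma, adjusted p = 0.564 and 0.854).

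RPL14A was lost in rpl14a, and the remaining copy read higher without passing the test. The RPL14A set read 6964 and 7020 in wild type against 151 and 213 in rpl14a, a difference of -5.29 ± 0.14 (limma, adjusted p = 1.58e-11). A second set, annotated with both copies, read 4123 and 4488 against 5.6 and 16.8, with 1 of 2 rpl14a arrays above background. The RPL14B set read 2512 and 3263 in wild type and 4224 and 4249 in rpl14a, where both arrays were the highest of all 24. The difference of 0.57 ± 0.16 missed the threshold (limma, adjusted p = 0.0803). It passed with limma's trend option and robust variances (adjusted p = 0.0375) and was not called without either wild-type array, where it was 0.76 without replicate 2 and, without replicate 1, 0.38 (adjusted p = 0.511). RPL14B lies on chromosome VIII, which reads higher in this strain, and the part of that shift in the value was not tested. Of the other sets naming both copies, 1 differed by -0.29 ± 0.13 and 1 by 0.38 ± 0.16, neither past the threshold (limma, adjusted p = 0.297 and 0.241).

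Across the deletions few large subunit genes were called. In 925 comparisons of a probe set with wild type, the sets of a deleted gene left out, limma called 8, or 0.865%, against 1.69% of all probe sets. Of these, 7 were lower and 1 was higher, while 0.786% of all probe sets were called lower and 0.909% higher. At an unadjusted p under 0.05 the share was 6.49%, against 11.7% of all probe sets. The calls fell on 4 probe sets: 2 of RPL8, 1 of RPL33B and 1 of RPL27A. The 3 calls in rpl7a were lower, where 2.98% of all probe sets were called lower and 3.57% higher. In rpl14a 1 was lower and 1 higher, against 1.44% and 1.89%. The 1 lower call each in rpl12a, rpl22a and rps0b stood against 0.183%, 1.01% and 1.58% of all probe sets called lower and 0.108%, 1.42% and 1.02% called higher.

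In the other 6 deletions limma called 0 large subunit probe sets. At an unadjusted p under 0.05, lower shares were 3.53%, 6.10% and 8.24% in rpl7b, rpl12b and rpl22b, against 1.51%, 5.71% and 2.56% of all. In rps0a, rps18a and rps18b they were 1.18%, 1.18% and 0%, against 6.37%, 7.01% and 5.63%. Higher shares were 0% in rpl7b, rpl12b and rpl22b, against 1.14%, 5.74% and 1.70%. In rps0a, rps18a and rps18b they were 1.18%, 2.35% and 2.35%, against 5.41%, 5.54% and 4.94%. Few of all probe sets were called in most of these strains. In rpl7b 0.0108% were called higher and 0.0216% lower, in rpl22b 0.0108% in each direction and in rpl12b 1.5% higher and 0.604% lower. In rps0a the shares were 0.0755% and 0.205%, in rps18a 0.226% and 0.442% and in rps18b 0.162% and 0.162%. Some of these counts rested on 1 array. Without rpl12b replicate 1 the count in rpl12b was 3 and without rpl22a replicate 1 that in rpl22a was 4, while that in rpl7a was 1 without wild-type replicate 1 and 5 without rpl22b replicate 1.

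**Figure D2:**
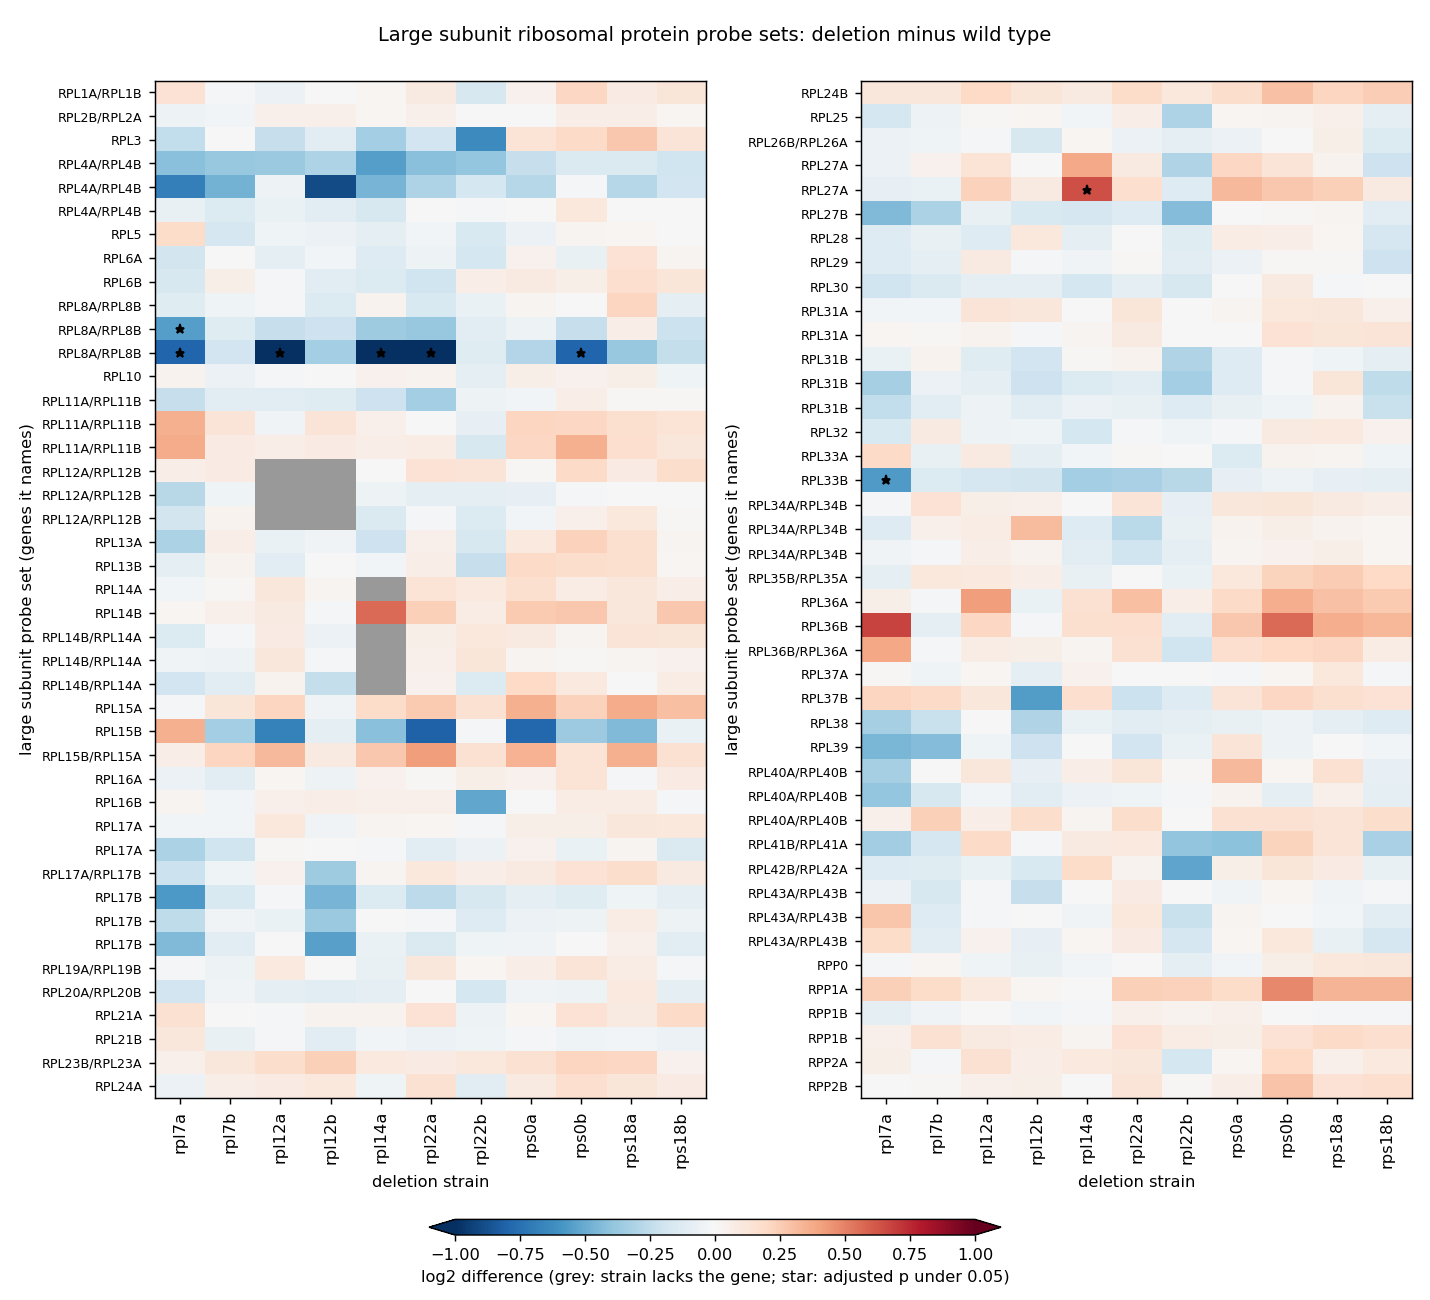
Log2 difference from wild type of the 85 large subunit probe sets (labelled by the genes they name) in the 11 deletions (columns), from -1 to 1, with values beyond that in the end colours. Grey marks a strain lacking the gene and a star an adjusted p under 0.05, and the 8 stars lie on 4 probe sets, 5 of them on 1 RPL8 set.

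With quantile normalization the arrays bounded these genes closely, and the intervals do not include the choice of scaling. The 95% interval of the difference lay within 1 log2 unit in 891 of the 925 comparisons (96.3%) and within 0.5 in 680 (73.5%), and 77 of 85 probe sets stayed within 1 unit in every deletion. The median standard error was 0.14, against 0.29 for all probe sets and 0.16 for 209 other probe sets that passed a brightness cut. By their array medians these 209 were dimmer than the large subunit sets. The 34 intervals that reached further came from 8 probe sets. Of these, 9 belonged to the third of 3 RPL4 sets and 8 each to RPL15B and RPL41, the gene pair of a very short basic peptide.

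The level of the whole set against wild type depended on the scaling of the arrays. With quantile normalization its median difference ran from -0.09 in rpl22b to 0.08 in rps18a, and, relative to all probe sets, was below 0 in 5 of 11 deletions. With median centring or no normalization it was below 0 in 10 of 11, from -0.29 to 0.01. All 11 comparisons share the same 2 wild-type arrays, so a like sign in every deletion is not 11 separate observations. With quantile normalization 6 probe sets lay below and 5 above wild type in every deletion. For the mean of the deletions the median relative to all probe sets ran from -0.10 to 0.01 over 10 settings, so no direction of the set against wild type is given.

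RPL8, a surface protein of the subunit encoded by RPL8A and RPL8B, held the widest differences. The 3 probe sets that name both copies did not move alike. The first read 8666 and 8514 in wild type, 4852 and 5042 in rpl7a, 3665 and 3309 in rpl12a, 3239 and 3761 in rpl14a, and 2037 and 2061 in rpl22a. In those 4 strains and in rps0b, with 5382 and 4577, no array reached the wild-type level. In rpl7b it read 7454 and 7598, in rpl12b 6272 and 7333 and in rpl22b 7178 and 8666. In rps0a it read 7412 and 6651, in rps18a 6347 and 6877 and in rps18b 7223 and 7333. The arrays of these 6 strains overlapped those of wild type in rpl22b and lay below them in the other 5.

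The difference was -2.07 ± 0.13 in rpl22a, a 4.19-fold lower signal (limma, adjusted p = 6.43e-07). It was -1.30 ± 0.13 in rpl12a and also in rpl14a (adjusted p = 0.000188 and 0.000108). In rpl7a it was -0.80 ± 0.13 and in rps0b -0.79 ± 0.13 (adjusted p = 0.00240 and 0.00733). The rps0b call was lost without wild-type replicate 1 (-0.78, limma, adjusted p = 0.0651) and without rps0b replicate 2 (-0.68, adjusted p = 0.0756). The probe set lay below wild type in 11 of 11 deletions, with a mean difference of -0.71 ± 0.10 (limma, adjusted p = 0.00718), and was the 1 large subunit probe set called there, against 0.302% of all probe sets called lower and 0.108% higher. Without wild-type replicate 1 or 2 the adjusted p was 0.124 or 0.0539.

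The second RPL8 set read 3871 and 3664 in wild type and 2575 and 2564 in rpl7a, its lowest strain, and between 2877 and 4123 on the other arrays. It was called in rpl7a, with a difference of -0.55 ± 0.10 (limma, adjusted p = 0.00511). Without wild-type replicate 1 it was -0.51 (adjusted p = 0.0601). The third set read 4876 and 4658 in wild type, 4286 and 4305 in rpl22a and between 3983 and 5536 elsewhere. It was not called in any deletion, and its difference in rpl22a was -0.15 against -2.07 for the first set. Across the 12 strain means, which share their arrays, the second set correlated with the first at r = 0.64 and the third at r = 0.22. By the annotation RPL8A lies on chromosome VIII and RPL8B on XII, and which copy each set detects was not given in the annotation.

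**Figure D3:**
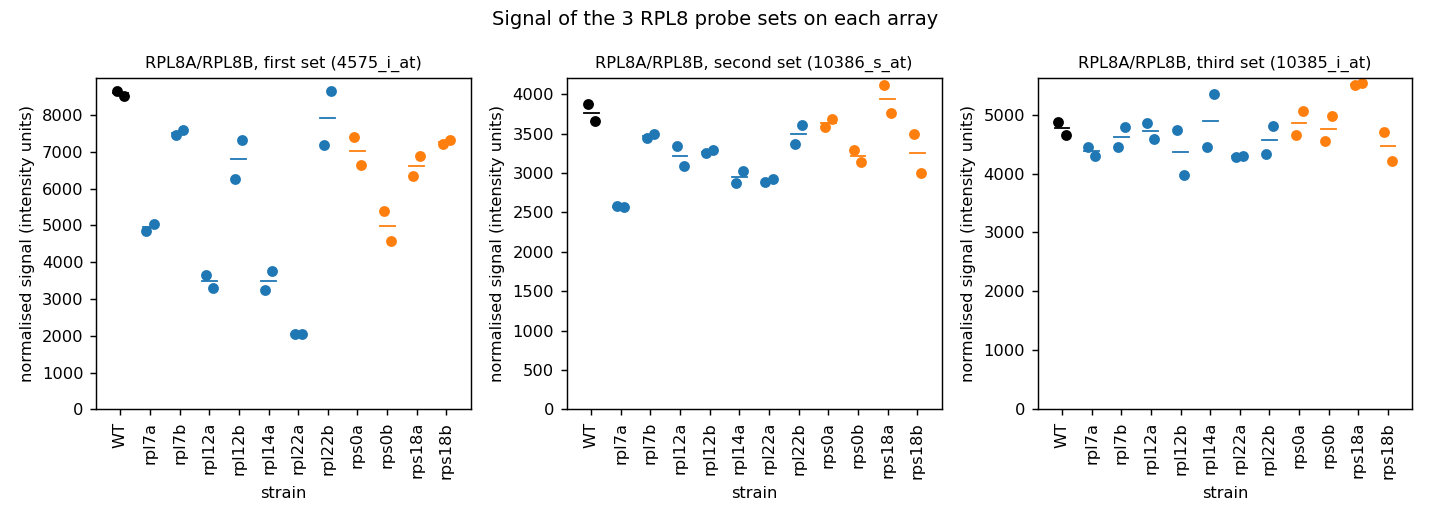
Normalised signal (linear axes from 0) of the 3 probe sets that name RPL8A and RPL8B on each of the 24 arrays, with points for replicates and a line for their mean (black wild type, blue large and orange small subunit deletions). The first set falls to 2037 and 2061 in rpl22a, while the third stays between 3983 and 5536 on all arrays.

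RPL33B and RPL27A gave the other calls. RPL33B, on chromosome XV, read 3468 and 3453 in wild type and 2226 and 2459 in rpl7a, the lowest 2 arrays of the 24. The difference was -0.56 ± 0.14 (limma, adjusted p = 0.0277). Leaving out either array of wild type or of rpl7a ended the call, with adjusted p from 0.0724 to 0.170. The other copy, RPL33A, on chromosome XVI, read 4710 and 5294 in wild type and 5600 and 5837 in the same strain, 0.20 ± 0.13 higher and not called (limma, adjusted p = 0.490). Without normalization that value was -0.23 and with median centring -0.12.

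RPL27A, on chromosome VIII, was the gene called higher. One of its sets read 2459 and 2226 in wild type and 3537 and 3798 in rpl14a, the highest 2 arrays of the 24. The difference was 0.65 ± 0.14 (limma, adjusted p = 0.0248). The call was lost without wild-type replicate 1 or 2 (adjusted p = 0.0865 and 0.149) and without rpl14a replicate 1 or 2 (0.0717 and 0.168). It was also lost with median centring (0.51, adjusted p = 0.312). The other RPL27A set read 2279 and 2329 in wild type and 3007 and 2997 in rpl14a, again the highest, with a difference of 0.38 ± 0.13 (limma, adjusted p = 0.146). RPL27B, on chromosome IV, read 3622 and 4327 in wild type and 3622 and 3430 in rpl14a, so the groups touched, and differed by -0.17 ± 0.13 (adjusted p = 0.616).

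A moderated F test asked whether a gene differed among any of the 12 strains. It called 4 of 85 large subunit probe sets, or 4.71%, against 11.4% of all probe sets. These were the first RPL8 set (limma F = 45.4, adjusted p = 3.06e-06), the second RPL8 set (adjusted p = 0.0230), RPL42 (adjusted p = 0.0277) and RPL27A (adjusted p = 0.0436). The next 4 were the other RPL27A set, RPL27B, RPL36B and the set naming RPL36B and RPL36A, with adjusted p from 0.0778 to 0.127. Leaving out 1 array kept the first RPL8 call in 24 of 24 fits and ended those of the second RPL8 set and RPL42 in 4 each and of RPL27A in 19. Without wild-type replicate 1, rpl7a replicate 1, either rpl14a array or rps18a replicate 1 the test called 2, and without rpl7a replicate 2 it called 1.

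RPL42, a protein near the exit site for transfer RNA, stood out through 1 strain. The set names both copies and read 2697 and 2820 in wild type, 2101 and 1743 in rpl22b, its 2 lowest arrays, and 2830 and 2830 in rpl22a. Against wild type the rpl22b difference of -0.53 was not called (limma, adjusted p = 0.448). Its highest strain was rpl14a, with 3067 and 3213, above both wild-type arrays. The RPL42B copy lies on chromosome VIII, which reads higher in rpl14a, and the part of that shift in the value was not tested.

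Paralog deletions were compared directly in 5 pairs. Of 422 comparisons 6 were called, or 1.42%, against 1.98% of all probe sets, and 4 of the 6 were on RPL8 probe sets. The rpl7 pair gave 2 lower and 1 higher (2.35% and 3% of all probe sets), the rpl12 pair 1 lower and 0 higher (1.1% and 0.55%), and the rpl22 pair 1 lower and 1 higher (1.09% and 1.74%). The first RPL8 set was lower in rpl22a than in rpl22b, with a difference of -1.94 ± 0.13 (limma, adjusted p = 1.32e-06). It was also lower in rpl12a than in rpl12b (-0.96 ± 0.13, adjusted p = 0.00313) and in rpl7a than in rpl7b (-0.61 ± 0.13, adjusted p = 0.0153). In none of these 3 pairs did the arrays of the copies overlap. The rps0a and rps0b strains differed in it by 0.50 ± 0.13, not called (limma, adjusted p = 0.289).

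The other calls between copies were the second RPL8 set in rpl7a against rpl7b (-0.43 ± 0.10, limma, adjusted p = 0.0232), RPL36B in the same pair and RPL42 in rpl22a against rpl22b. RPL36B read 2491 and 2467 in rpl7a and 1415 and 1505 in rpl7b, a difference of 0.76 ± 0.19 (limma, adjusted p = 0.0321). RPL36B lies on chromosome XVI, which reads higher in rpl7a, and the part of that shift in the value was not tested. RPL42 differed by 0.56 ± 0.11 (adjusted p = 0.0159). The 3 calls in the rpl7 pair were lost without any 1 of its 4 arrays, which left 3 calls in all pairs. The RPL42 call was lost without either rpl22a array (adjusted p = 0.0668 and 0.0828) and without rpl22b replicate 2 (0.124). In the rps0 and rps18 pairs limma called 0 large subunit probe sets. Of all probe sets, 0.0323% were called higher and 0.0539% lower in the rps0 pair, and 0.0108% and 0% in the rps18 pair. At an unadjusted p under 0.05, the rps0 pair gave 1.18% of large subunit probe sets in each direction, against 4.35% higher and 4.08% lower of all. The rps18 pair gave 3.53% higher and 0% lower, against 2.45% and 2.34% of all.

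Most of these genes read slightly lower in large than in small subunit deletions. With each strain mean as 1 value, 7 large subunit deletions against 4 small subunit deletions, 76 of 85 probe sets (89.4%) were lower in the large subunit deletions, while 49.2% of all probe sets were, 70.0% of 70 small subunit probe sets and 39.2% of the 209 others of like brightness. The median difference was -0.09 log2 units, against 0.00 over all probe sets, -0.06 for the small subunit genes and 0.04 for the others of like brightness. Relative to all probe sets the median stayed between -0.09 and -0.07 over 10 settings, including a fit without rpl7a, rpl12b and rpl14a. These strains, each with a chromosome that reads higher, are all large subunit deletions. Subunit and that shift are therefore partly confounded, here and in every comparison of the subunits below. limma called 0 single probe sets (lowest adjusted p 0.0568), against 2.23% of all probe sets called lower and 1.09% higher. At an unadjusted p under 0.05 there were 13 lower (15.3%) and 0 higher, against 9.46% and 7.89% of all probe sets. The alternatives called 0 to 2.

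For 7 probe sets (8.24%) every large subunit deletion lay below every small subunit deletion, and for 0 the reverse held. Among all probe sets the shares were 3.63% and 2.03%. The 7 sets belong to RPL3, RPL4 (2 sets), RPL33B, RPL35, RPL11 and RPL30. The 11 differences share 1 wild type, which cancels between the subunits.

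RPL3, a single-copy gene whose protein reaches the peptidyl transferase centre, had the widest difference of these. Its probe set read 3263 and 3680 in wild type. The 14 arrays of large subunit deletions ran from 1563 to 3594 with a median of 3044. The 8 arrays of small subunit deletions ran from 3713 to 4265 with a median of 3893, so no array of the first kind reached one of the second. The difference between the strain means was -0.43 ± 0.11 (SE, 7 and 4 strains, 95% interval -0.67 to -0.19, limma, adjusted p = 0.0568). The low end was rpl22b replicate 2, and its replicate 1 read 3190. Without the strain rpl22b the difference was -0.37 (adjusted p = 0.0418), and without rpl7b it was -0.47 (adjusted p = 0.0403). Without any 1 of the other 9 strains it missed the threshold, with adjusted p up to 0.162 (without rps18a). Adjusted p was 0.0292 with limma's trend option and robust variances, 0.166 with median centring and 0.320 without normalization.

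RPL4, whose long loop lines the exit tunnel, followed. The first of 3 sets read 4354 and 4992 in wild type, from 2961 to 4027 in the large subunit deletions and from 3664 to 4710 in the small. Single arrays overlapped, the strain means did not, and the difference was -0.23 ± 0.06 (limma, adjusted p = 0.0793). This set was below wild type in 11 of 11 deletions, with a mean difference of -0.32 ± 0.13, which was not called (limma, adjusted p = 0.347). A second RPL4 set differed by -0.11 between the subunits and the third by -0.24.

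RPL30, which in yeast blocks the splicing of its own transcript, differed by -0.15 ± 0.06 (limma, adjusted p = 0.182). RPL35, at the tunnel exit, differed by -0.19 ± 0.07 (adjusted p = 0.171), and an RPL11 set, whose protein binds 5S rRNA, by -0.18 ± 0.07 (adjusted p = 0.199). RPL33B differed by -0.21 ± 0.09 (adjusted p = 0.238). None of the 4 passed the threshold, and each gap was at most 0.21 log2 units.

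**Figure D4:**
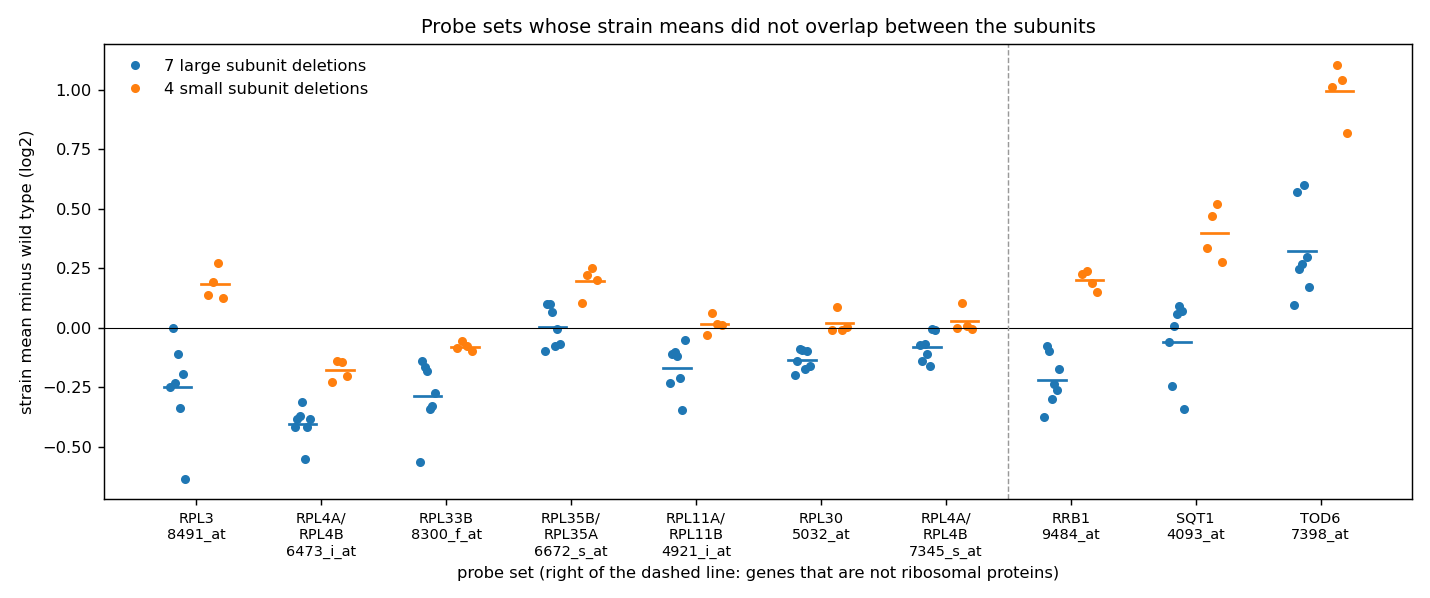
Mean log2 difference from wild type of each of the 7 large (blue) and 4 small subunit deletions (orange). Left of the dashed line are the 7 large subunit probe sets whose strain means did not overlap. Right of it are the chaperone genes RRB1 and SQT1 and the repressor gene TOD6. Points are strains and bars their means, and in every column the blue points lie below the orange ones.

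Where both copies of a pair have probe sets of their own, the copies could be read apart. This held for 15 pairs with 38 probe sets, of which 34 were lower in the large subunit deletions, beside 76 of all 85. The 4 above 0 were RPL15B, 0.13 ± 0.22 against -0.19 ± 0.08 for RPL15A, and RPL21B, RPL33A and an RPL27A set, at 0.01, 0.04 and 0.00. RPL33B stood at -0.21. RPL13A and RPL13B were nearly alike, at -0.23 and -0.19, as were RPL16A and RPL16B, at -0.07 and -0.07. Less alike were RPL37A and RPL37B, at -0.03 and -0.19, and RPP1A, at -0.19, against -0.01 and -0.05 for RPP1B.

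The proteins that assemble with named large subunit proteins were checked from a list of 5 dedicated chaperones, all measured. For large against small subunit deletions limma called 2 lower and 0 higher, where 2.23% of all probe sets were called lower and 1.09% higher. RRB1, the chaperone of Rpl3, read 315 and 201 in wild type, a median of 212 in large subunit deletions (154 to 282) and 295 in small (246 to 333). Its strain means did not overlap, with a difference of -0.42 (limma, adjusted p = 0.0121). Without normalization it was -0.30 (adjusted p = 0.368). SQT1, the chaperone of Rpl10, read 999 and 899 in wild type, a median of 921 in large subunit deletions (684 to 1081) and 1235 in small (1043 to 1652), a difference of -0.46 (limma, adjusted p = 0.0358). The SQT1 call was lost without any 1 of 7 strains (adjusted p from 0.0502 to 0.120). SYO1, the chaperone that imports Rpl5 and Rpl11, differed by -0.41, ACL4 of Rpl4 by -0.16 and BCP1 of Rpl23 by -0.03, and none of these 3 was called.

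Among 11 regulators of ribosomal protein genes, with 19 probe sets, limma called 1 lower and 0 higher for large against small subunit deletions, against the same 2.23% and 1.09%. This was TOD6, a repressor of ribosome biogenesis genes, which read a median of 136 in large subunit deletions (90.2 to 183) and 210 in small (175 to 231), against 118 and 89.8 in wild type. The difference was -0.67 (limma, adjusted p = 0.0101). FHL1, which binds ribosomal protein promoters, read 13.9 and 15.2 in wild type and 37.4 and 30.7 in rpl7a. The wild-type values are near the background of those arrays, 8.94 and 11.8 in deposited units, so the difference of 1.22 ± 0.25 (limma, adjusted p = 0.00908) rests on low signals. DOT6, a relative of TOD6, read 375 and 370 in wild type and 676 and 742 in rpl12b (0.93 ± 0.13, limma, adjusted p = 0.00230). In those strains 3.57% and 1.5% of all probe sets were called higher. FHL1 and DOT6 lie on chromosomes XVI and V, which read higher in those strains. The FHL1 call was lost without wild-type replicate 1 or rpl7a replicate 1 (adjusted p = 0.0794 and 0.0829). Without normalization TOD6, FHL1 and DOT6 all missed the threshold (limma, adjusted p = 0.157, 0.0608 and 0.131).

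Proteins of the stalk, which recruits the GTPases of translation, are encoded by RPP0, RPP1A, RPP1B, RPP2A and RPP2B with RPL12A and RPL12B at its base. None of the 9 probe sets was called against wild type, for the mean of the deletions, between the subunits or by the F test. RPP1A moved most and lay above wild type in 11 of 11 deletions, as did 1 set of RPP1B, all against the same 2 wild-type arrays. RPP1A read 4592 and 3983 in wild type and 6236 and 5697 in rps0b, its highest strain, a difference of 0.48 ± 0.14 (limma, adjusted p = 0.0934). In the 4 small subunit deletions it was 0.18 to 0.48 above wild type and in the 7 large subunit deletions 0.01 to 0.24. RPP0, the anchor of the stalk, stayed between -0.09 and 0.11, and the 2 sets of RPP1B between -0.09 and 0.19. RPP2A ran from -0.18 to 0.20 and RPP2B from -0.01 to 0.28.

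The other roles gave no calls either. Around the exit of the tunnel, 16 probe sets of 12 genes ran from -0.57 to 0.25 over the deletions. The 4 sets of RPL5 and RPL11, which carry 5S rRNA into the subunit, ran from -0.34 to 0.37, and the 3 sets of RPL40, made as a fusion with ubiquitin, from -0.38 to 0.32. The 11 single-copy genes had a median of -0.04 for the mean of the deletions. The 6 sets for proteins the cell can grow without (RPL24, RPL29, RPL38, RPL39 and RPL41) had a median of -0.07, against -0.01 for the 85. Between the subunits the medians of these lists lay between -0.07 and -0.12, near the -0.09 of the 85. A list of 3 genes with promoters of the Abf1 type, RPL3, RPL4A and RPL4B, stood lower. Its 4 sets had a median of -0.24 between the subunits and -0.21 for the mean of the deletions, with 0 called. RPL3 and RPL4 are also named above for their difference between the subunits.

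Members differed in how steady they were. The range of the 12 strain means had a median of 0.36 log2 units, against 0.44 for 64 small subunit probe sets and 0.95 for all probe sets. For the 209 others of like brightness it was 0.50, but these were dimmer. Their array medians ran from 11.75 to 11.94 log2 units, against 12.23 to 12.54 for 78 of the large subunit sets. RPL2, next to the peptidyl transferase centre, had the steadiest probe set at 0.12, followed by RPL10 (0.15) and by 1 set each of RPP1B (0.15), RPL17A (0.15) and RPL31A (0.15). The other sets of these 3 ranged over 0.19, 0.36 and 0.16. The RPL2 set was also the brightest of the 85, at 13202 to 15099. RPL10, which joins the subunit last and is bound by Sqt1, read 8339 and 8152 in wild type and between 7364 and 8936 on all arrays. The range was under 0.25 for 20 probe sets, 0.25 to 0.5 for 41, 0.5 to 1 for 22 and above 1 for 2, the first RPL8 set (2.07) and RPL15B (1.17). RPL15B was lowest in rpl22a and was not called in any deletion. Across the 85 the range was smaller at higher mean signal (Spearman rho = -0.56, a description over probe sets of the same arrays).

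On the 3 chromosomes that read higher, the large subunit genes were set beside their neighbours, without a test. In rpl7a the 506 other probe sets of chromosome XVI had a median difference of 0.89, and 212 were called higher. The 4 large subunit sets on it alone, those of RPL5, RPL21B, RPL33A and RPL36B, had a median of 0.19 with 0 called. The 6 other probe sets of that chromosome that passed the brightness cut had a median of 0.65 with 3 called. They ran from 0.098 to 1.48, a range that holds all 4 large subunit sets (0.11 to 0.68). RPL5 read 9654 and 9973 in wild type and 10866 and 11462 in rpl7a, a difference of 0.19 ± 0.13 (limma, adjusted p = 0.502). RPL21B read 12873 and 13679 and then 14148 and 14583, a difference of 0.11 ± 0.10 (adjusted p = 0.591). In each the rpl7a arrays were the highest of the 24, yet without normalization the differences were -0.04 and -0.06.

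RPL36B, the dimmest of the 4, read 1686 and 1429 in wild type and 2491 and 2467 in rpl7a, a difference of 0.68 ± 0.19 that missed the threshold (limma, adjusted p = 0.0518). It passed without either array of rpl22b or of rps18a (adjusted p from 0.0187 to 0.0473) and with the trend option and robust variances (0.0240). RPL36A, on chromosome XIII, differed by 0.06 ± 0.18 (adjusted p = 0.930). Of the 8 sets with 1 of 2 copies on chromosome XVI, 6 were above 0, with a median of 0.23. The 73 sets elsewhere had a median of -0.10, and 18 were above 0.

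**Figure D5:**
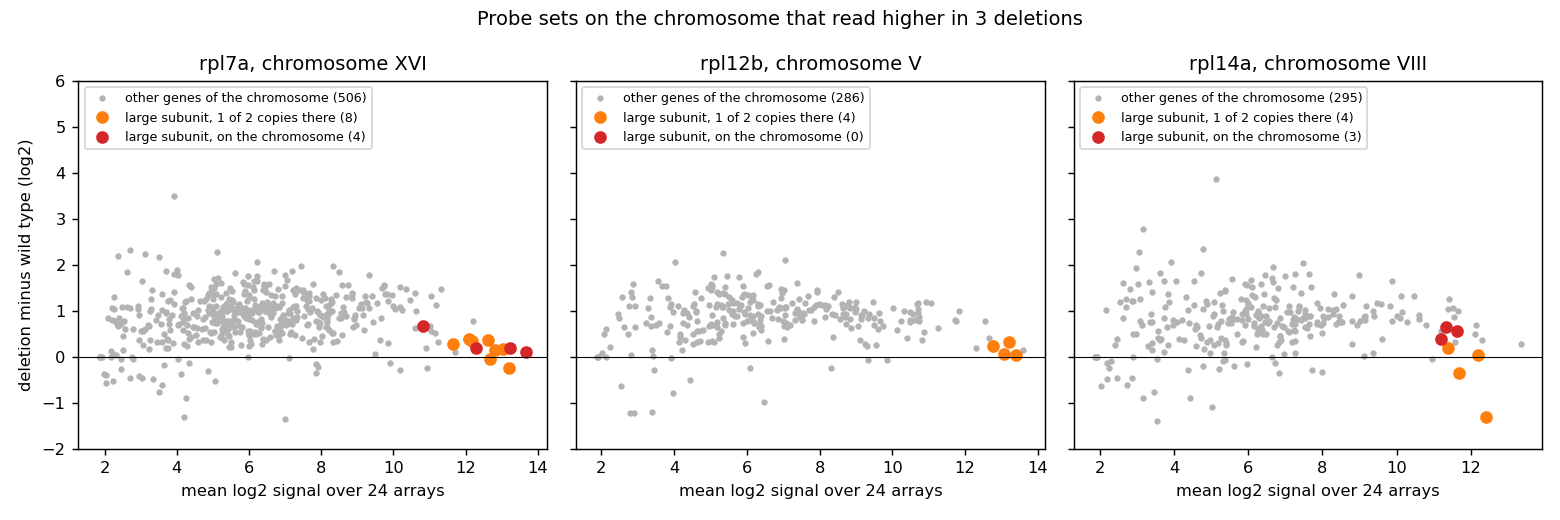
Log2 difference from wild type against mean log2 signal for probe sets of chromosome XVI in rpl7a, V in rpl12b and VIII in rpl14a, with large subunit sets in red (gene on that chromosome alone) or orange (1 of 2 copies there) and other genes in grey. The grey points have medians of 0.79 to 0.92, and the large subunit points sit at the bright end, between -1.30 and 0.68.

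In rpl12b no probe set names large subunit genes of chromosome V alone. The 4 with 1 of 2 copies there had a median of 0.14, all above 0, while 286 other sets of the chromosome had 0.92 and the 8 bright ones 0.70. In rpl14a the 3 sets on chromosome VIII alone, of RPL14B and RPL27A, had a median of 0.57 with 1 called. The 295 others had 0.79, and the 12 bright ones 0.63 with 7 called, and the 3 lay within the range of these bright neighbours (0.27 to 1.27). The 4 with 1 of 2 copies there, RPL8 among them, ran from -1.30 to 0.19.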

How the data were processed

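The deposited values are 1 linear intensity per probe set and array, made by the authors from 24 Affymetrix arrays of 12 strains (2 each); probe summarisation and scaling are not given in the sources used here. Gene names came from the array platform's annotation, updated to the yeast reference annotation.

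After 60 controls were set aside, values under 3.6 (the 10th percentile, 9.89% of values) were raised to it, log2 was taken, and 9275 probe sets were quantile normalized. limma 3.58.1 in R 4.3.3 fitted 12 strain means (12 residual degrees of freedom), with Benjamini-Hochberg adjustment over all probe sets of a comparison at 0.05. Signals printed are the normalised values on the linear scale. For large against small subunit deletions the strain was the unit. RPL12 and RPL14A sets left out the strains lacking the gene. Each array's background was set at percentile 95 of its 19 control probe sets for transcripts of other organisms, and "others of like brightness" were probe sets of no ribosomal protein gene at or above the 5th percentile of the set's means. A bound on a fold uses the lowest signal above background on each array of the deletion.

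Members, lists and tests were chosen with earlier results of these data known. Named were the deleted gene and its remaining copy, up to 2 called members each way per deletion and 5 for the other contrasts, the 8 smallest F test p, the stalk, and members of the 3 higher chromosomes; others were named after their values were seen. With 2 replicates, p-values measure the spread between these cultures, estimated over all strains of the fit. Those for large against small subunit deletions measure instead the spread between strain means within each kind of deletion. The steps were tested on simulated data. Alternatives were other scalings, floors and fits, and leaving out arrays or strains.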

Additional observations from a re-analysis of the deposited data

Results flagged for a closer look

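Strains lacking either copy of a pair differed from each other, by the limma test of the difference itself, in 6 comparisons. The first RPL8 probe set differed by -1.94 log2 units in rpl22a against rpl22b, by -0.96 in rpl12a against rpl12b and by -0.61 in rpl7a against rpl7b. The second RPL8 set differed by -0.43 in rpl7a against rpl7b, RPL36B by 0.76 in the same pair, and RPL42 by 0.56 in rpl22a against rpl22b. RPL36B lies on chromosome XVI, which reads higher in rpl7a, and the part of that shift in its difference was not tested. The dependence of the rpl7 and RPL42 calls on single arrays is given above.

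Among the 4 small subunit deletions, rps0b stood apart from the other 3 in the second RPL4 set, at 0.10 above wild type, and in RPL30, at 0.087 above. These were found among 30 groups of strain means, and chance marks about 1 in 20 such groups.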

How the results depend on the processing

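Counts of called large subunit probe sets moved with the settings. Against wild type 8 calls became 19 with a floor at the 25th percentile (14.1), 14 with limma's trend option and robust variances and 0 with only the 4 arrays compared, a fit of fewer arrays; leaving out 1 array gave 4 (without wild-type replicate 1) to 12 (without rpl12b replicate 1). For the mean of the deletions leaving out 1 array gave 0 or 1. For large against small subunit deletions 0 became 1 with centring on bright probe sets, 2 with the higher floor and 2 with that option, and 0 to 1 without 1 strain. Between paralogs 6 became 2 without normalization, 3 with either centring, 12 with the higher floor and 0 with only the arrays compared, and 3 to 9 without 1 array. The F test's 4 became 1 without normalization, with either centring, with log2(value + 1) or without the dimmest 25% of probe sets, 11 with the higher floor and 7 with that option, and 1 to 6 without 1 array. Shares of all probe sets called were not counted under the alternatives, so a change specific to the set cannot be told from a general one. The cause was not tested.

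In rpl7a, RPL5 (-0.045), RPL33A (-0.23) and RPL21B (-0.063) turned lower without normalization, and RPL33A (-0.12) with median centring. No other single difference turned around under any alternative run, and the F test results have no direction.

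Replicate numbers did not pair the arrays. Deviations of same-numbered arrays correlated at -0.01 to 0.19 over 66 pairs of strains, and 19 passed 0.1. With the replicate number as a block there were 12 calls against wild type, 1 for the mean, 6 between paralogs, 5 by the F test and 1 for large against small. With 2 arrays a strain, their number limits the precision; the members stood far above background.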
